A study of Mus musculus with 8 samples.

Results

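Sarcomere proteins, the parts of the contractile unit of muscle, come in isoforms that the heart uses at different ages and in different chambers, and 10 of their genes were followed here in hearts with and without extra Plin5. They are the myosin heavy chains Myh6, Myh7 and Myh7b, the actins Acta1 and Actc1, the troponins Tnni1, Tnni3 and Tnnt2, and the atrial light chains Myl4 and Myl7. The members were listed by name, each had exactly 1 row with its symbol alone, and so 10 of the 19938 genes of the array table were taken. Hearts of 4 MHC-Plin5 mice were set against those of 4 control mice, and in both groups the animals were 12-week-old males of a c57/bl background labelled as fasted. Plin5 is a coat protein of lipid droplets. The labels do not expand MHC. In transgenes of the heart it usually stands for a myosin heavy chain promoter that acts in cardiomyocytes, most often that of Myh6, so the promoter's own gene may be among the members. The labels give neither the number of transgenic lines nor whether controls were littermates.

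As background, the adult mouse ventricle runs on the fast alpha myosin heavy chain of Myh6, while the fetal ventricle uses more of the slow beta chain of Myh7. Cardiac actin (Actc1) and cardiac troponin I (Tnni3) likewise prevail in the adult heart over skeletal actin (Acta1) and slow skeletal troponin I (Tnni1), which are prominent in the fetal heart. Hearts under mechanical or metabolic load often return in part to the fetal forms. Myl4 and Myl7 encode the essential and regulatory light chains of atrial myosin, whose ventricular partners are Myl3 and Myl2. A whole-heart sample mixes chambers and cell types, and fewer cells of a type and less RNA per cell cannot be told apart in it.

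Levels are deposited log2 values of RMA, a procedure that corrects, quantile-normalizes and summarises the probes of each transcript. Levels of different genes are not set against each other, because each gene has its own probes. Array medians lay between 5.99 and 6.25, highest in control 2 and next in MHC-Plin5 4. Plin5, the check of the labels, had 12.17, 12.69, 12.63 and 12.08 in MHC-Plin5 hearts 1 to 4, against 8.92, 8.87, 9.04 and 8.58 in control hearts 1 to 4, so every heart matched its label. Of 10 cardiomyocyte markers, which test the tissue label, the mean level was 12.82 to 13.09 in MHC-Plin5 hearts and 13.08 to 13.12 in control hearts, and limma called 0 of them (0 also at an unadjusted p under 0.05). All 10 had a log2 difference below 0, with a median of -0.11. Precision is set by having 4 arrays in each group. The limma p values weigh a difference against the spread between these mice, drawn toward the spread of all genes. For a very steady gene such as Actc1 (SDs 0.02 and 0.04, limma SE 0.08) the other genes thus weigh heavily. A gene was called at a limma adjusted p under 0.05 over all 19938 genes.

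Only Acta1 among the 10 members was called, and it rose. That is 1 member higher and 0 lower, where 2.08% of all genes were called higher, 1.17% lower and 3.25% either way. Myh7 was far higher in some MHC-Plin5 hearts than in any control heart, but not in all 4, and it did not pass. The other adult and fetal isoforms differed by at most 0.26 on the log2 scale, and the atrial light chains varied within both groups by more than the group means differed. The median difference over the 10 members was 0.11, beside -0.03 over all genes. The groups did not overlap in 2 members, Acta1 above and Tnni3 below, where 11.2% of all genes did not overlap in either direction.

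**Figure D1:**
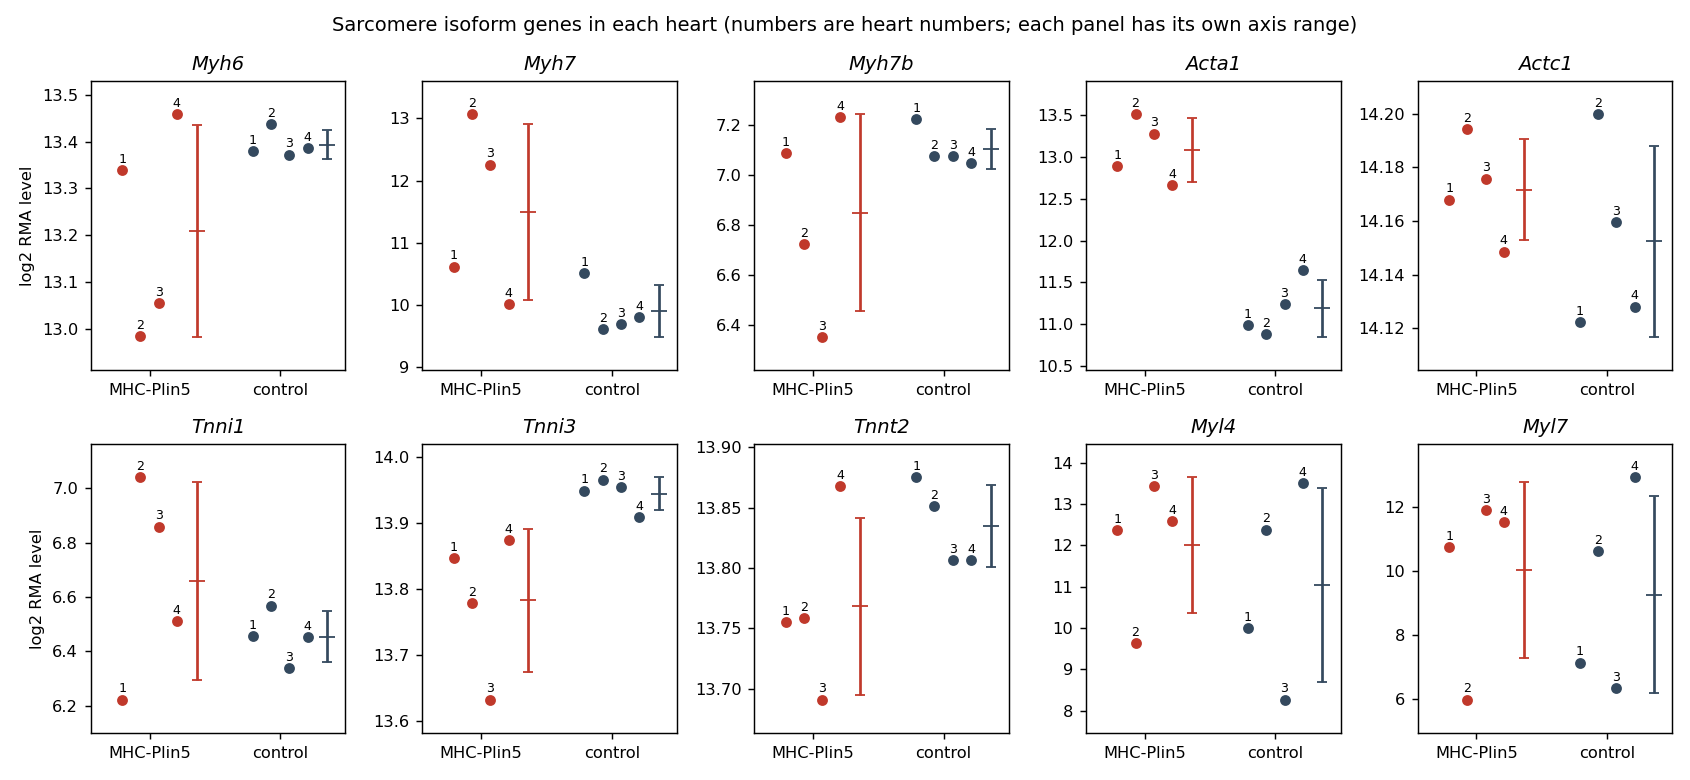
The log2 RMA level of each of the 10 genes (y axis, its own range in each panel) is shown for the 4 MHC-Plin5 hearts on the left and the 4 control hearts on the right, with heart numbers beside the points and the mean ± SD as a bar. Acta1 is higher in all 4 MHC-Plin5 hearts, Myh7 mainly in hearts 2 and 3, and Myl4 and Myl7 spread widely in both groups.

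Acta1, skeletal alpha-actin, stood at 12.89, 13.51, 13.28 and 12.67 in MHC-Plin5 hearts 1 to 4, against 10.99, 10.88, 11.24 and 11.65 in control hearts 1 to 4. The lowest MHC-Plin5 heart lay 1 log2 unit above the highest control heart, so the groups were well apart. The means were 13.09 ± 0.38 and 11.19 ± 0.34 (SD, n = 4 each), a 3.72-fold rise with a log2 difference of 1.90 (SE 0.21, limma adjusted p = 0.000917). The 95% interval of that difference ran from 1.45 to 2.35. Permuting the 8 hearts exactly gave a two-sided p of 0.0286, and 4 against 4 hearts can give none smaller. The difference lay between 1.75 and 2.05 when any single heart was left out, with adjusted p values up to 0.00563. Of 22 alternatives, only a test with each gene's own variances ended the call (adjusted p = 0.0994), and that test called 23 genes higher and 5 lower in the whole table.

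Actc1, cardiac alpha-actin, was level across the hearts. Its values were 14.17, 14.19, 14.18 and 14.15 in MHC-Plin5 hearts, against 14.12, 14.20, 14.16 and 14.13 in control hearts. The groups overlapped and the log2 difference was 0.02 (95% interval -0.16 to 0.20, adjusted p = 0.941). Its level lies near the highest value of the table, 14.66, and whether the array signal was still linear there was not tested. Tnni3, Tnnt2 and Acta1 in MHC-Plin5 hearts lie not far below, and linearity was not tested for them either. The actins are closely alike in sequence, and their probes may share signal.

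The upstream sequences of this pair are shown because one actin was called and the other was not. Each line gives the 250 bases before the annotated start from the RefSeq table (GRCm38.p6), minus strand, 5′ to 3′, with matches to 3 motifs in capitals.
Acta1, chr8:123894776-123895025: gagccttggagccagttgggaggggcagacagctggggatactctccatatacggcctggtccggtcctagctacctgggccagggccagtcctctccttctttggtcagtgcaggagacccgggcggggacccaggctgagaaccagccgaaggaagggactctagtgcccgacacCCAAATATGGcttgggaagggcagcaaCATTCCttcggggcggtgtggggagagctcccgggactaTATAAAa
Actc1, chr2:114052876-114053125: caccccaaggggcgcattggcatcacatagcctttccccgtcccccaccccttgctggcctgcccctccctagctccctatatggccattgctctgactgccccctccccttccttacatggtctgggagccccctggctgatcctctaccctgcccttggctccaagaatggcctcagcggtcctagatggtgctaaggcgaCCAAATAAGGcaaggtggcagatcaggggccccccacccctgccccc
The motifs searched on both strands were the CArG box, which serum response factor binds, CATTCC, the core of the muscle element that TEAD factors bind, and TATAAA. The Acta1 window holds 1 match to each, with the CArG box at bases -73 to -64 and CATTCC at -46 to -41, counted back from the annotated start. The Actc1 window holds a CArG box at -47 to -38 and no match to the other motifs. Among 32851 such windows of all genes, 1.47% hold a CArG box, 12.6% CATTCC and 12.4% TATAAA, and 0.186% hold both a CArG box and CATTCC. Of the 10 members, Myl7 is the other one whose window holds both. The motifs do not overlap in these windows, and a match is a stretch of letters, not a measured binding site.

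Myh7, the slow beta chain that serves the fetal ventricle, split the MHC-Plin5 hearts. It had 10.62, 13.06, 12.26 and 10.02 in MHC-Plin5 hearts 1 to 4, against 10.52, 9.61, 9.69 and 9.80 in control hearts 1 to 4. Hearts 2 and 3 stood above every control heart by more than 1.7 log2 units, heart 1 only just did, and heart 4 lay below control 1. The means were 11.49 ± 1.41 and 9.91 ± 0.42 (SD, n = 4 each), with a log2 difference of 1.58 (SE 0.55, 95% interval 0.38 to 2.79). The adjusted p was 0.163 and the exact two-sided permutation p 0.0571, so Myh7 was not called. The call depended on single hearts. The difference was 2.07 (adjusted p = 0.0316) without MHC-Plin5 4 and 1.06 (adjusted p = 0.338) without MHC-Plin5 2. Weighting the arrays by their estimated quality gave a call, with a difference of 2.06 (adjusted p = 0.0309). The weights, estimated from these same data, were lowest for MHC-Plin5 4 (0.41) and high for MHC-Plin5 2 (1.90). This setting is therefore not separate from leaving out MHC-Plin5 4, and it called 884 genes higher and 741 lower in the whole table.

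Myh6, the adult alpha chain, had 13.34, 12.98, 13.06 and 13.46 in MHC-Plin5 hearts, against 13.38, 13.44, 13.37 and 13.39 in control hearts. The 4 control hearts lay within 0.07 of each other, while MHC-Plin5 1, 2 and 3 stood below all of them, heart 1 only just, and MHC-Plin5 4 above. The log2 difference was -0.18 (95% interval -0.44 to 0.07, adjusted p = 0.482) and was not called. Myh6 and Myh7 are neighbours on chromosome 14 and encode similar proteins, so their probes may in part read each other's transcript.

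Myh7b, a minor slow myosin heavy chain, had 7.09, 6.72, 6.35 and 7.23 in MHC-Plin5 hearts, against 7.22, 7.07, 7.07 and 7.05 in control hearts. MHC-Plin5 2 and 3 were again below every control heart, and heart 4 was only just above all of them. The log2 difference of -0.26 (95% interval -0.63 to 0.11) was not called (adjusted p = 0.50) and was -0.09 without MHC-Plin5 3.

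Each of the 3 myosin heavy chain genes carries a microRNA, and these are shown because the array also has rows for the RNA of 2 of them. The mature sequences from the RefSeq table (GRCm38.p6) follow, 5′ to 3′, with the seed (bases 2 to 8) in capitals.
miR-208a-3p, within Myh6, chr14:54949072-54949093, minus strand: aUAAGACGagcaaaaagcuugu
miR-208b-3p, within Myh7, chr14:54975710-54975731, minus strand: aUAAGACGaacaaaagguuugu
miR-499-5p, within Myh7b, chr2:155622893-155622913, plus strand: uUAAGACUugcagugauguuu
The miRNAs of Myh6 and Myh7 share the seed UAAGACG, and that of Myh7b has UAAGACU. The array does not measure mature miRNAs as such, and the labels do not say which part of the transcript its probes read. The Mir208a row had 4.49, 4.36, 4.12 and 4.61 in MHC-Plin5 hearts, against 4.88, 5.10, 4.62 and 4.60 in control hearts. These are dim values whose groups overlapped only through MHC-Plin5 4 and control 4, and the log2 difference of -0.40 (SE 0.14) was not called (adjusted p = 0.169). The Mir499 row, at 3.99 ± 0.09 and 4.08 ± 0.25 (SD, n = 4 each), was not called either (log2 difference -0.09, adjusted p = 0.793). Mir208b, the miRNA of Myh7, was not analysed here.

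Tnni3, cardiac troponin I, was the member whose MHC-Plin5 hearts all lay below the control hearts. Its values were 13.85, 13.78, 13.63 and 13.87 in MHC-Plin5 hearts, against 13.95, 13.97, 13.95 and 13.91 in control hearts. The gap was small, and the log2 difference of -0.16 (SE 0.09, 95% interval -0.36 to 0.04) was not called by limma (adjusted p = 0.424), although exact permutation of the hearts gave the smallest possible two-sided p, 0.0286. A small fall was not particular to Tnni3. In 2 of the 10 cardiomyocyte markers, Atp2a2 (-0.13) and Pln (-0.11), all MHC-Plin5 hearts also lay below all control hearts, and neither was called.

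Tnni1, slow skeletal troponin I, had 6.22, 7.04, 6.86 and 6.51 in MHC-Plin5 hearts, against 6.46, 6.57, 6.34 and 6.45 in control hearts. Hearts 2 and 3 were above all controls and heart 1 below all of them. The log2 difference was 0.21 (95% interval -0.15 to 0.56, adjusted p = 0.588), and 0.08 without MHC-Plin5 2. Tnnt2, cardiac troponin T, is spliced into fetal and adult forms that a level per gene does not separate. It had 13.76, 13.76, 13.69 and 13.87 in MHC-Plin5 hearts, against 13.88, 13.85, 13.81 and 13.81 in control hearts. The groups overlapped only through MHC-Plin5 4, and the log2 difference of -0.07 (95% interval -0.26 to 0.12) was not called (adjusted p = 0.768).

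**Figure D2:**
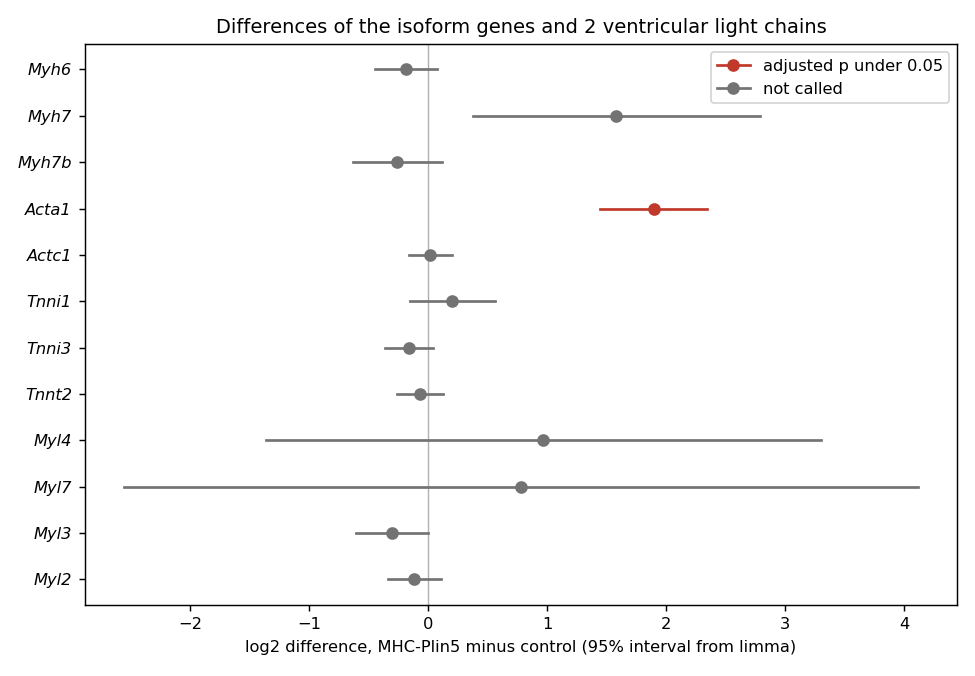
Points give the log2 difference (MHC-Plin5 minus control, x axis) of the 10 genes and of the ventricular light chains Myl3 and Myl2, and lines the 95% interval from limma. Only Acta1, in red, was called, and the intervals of Myl4 and Myl7 are the widest of those plotted.

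The isoform pairs were compared within each heart, as the log2 level of the fetal, skeletal or atrial form minus that of its adult or ventricular partner, set to 0 at the control mean. Over 6 pairs and exact two-sided permutation tests, none had an adjusted p under 0.05. At 4 against 4 hearts at least 4 of the 6 pairs would have to reach the smallest p for that, and 1 did.

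Skeletal over cardiac actin was higher in every MHC-Plin5 heart than in any control heart. Acta1 minus Actc1 was 1.68, 2.28, 2.07 and 1.48 in MHC-Plin5 hearts, against -0.17, -0.36, 0.04 and 0.49 in control hearts. All 4 MHC-Plin5 hearts lay above all control hearts, and the difference was 1.88 (SE 0.26, exact p = 0.0286, adjusted over the 6 pairs 0.171). Almost all of it is the difference in Acta1, and no fold is given for the ratio, because Actc1 lies where linear signal was not tested.

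Beta over alpha myosin was uneven among the MHC-Plin5 hearts. Myh7 minus Myh6 was 0.77, 3.56, 2.69 and 0.05 in MHC-Plin5 hearts, against 0.63, -0.34, -0.19 and -0.09 in control hearts. Hearts 2 and 3 stood far above the controls, heart 1 just above control 1 and heart 4 among the controls. The mean difference was 1.77 (SE 0.85, exact p = 0.0571, adjusted 0.171). Tnni1 minus Tnni3 was -0.13, 0.75, 0.72 and 0.13 in MHC-Plin5 hearts, against -0.001, 0.09, -0.13 and 0.03 in control hearts. Here too hearts 2 and 3 were the highest, and the difference was 0.37 (SE 0.22, exact p = 0.229, adjusted 0.457). Myh7b minus Myh6 hardly differed (-0.07, SE 0.12, exact p = 0.8), and its sign turned without MHC-Plin5 3.

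**Figure D3:**
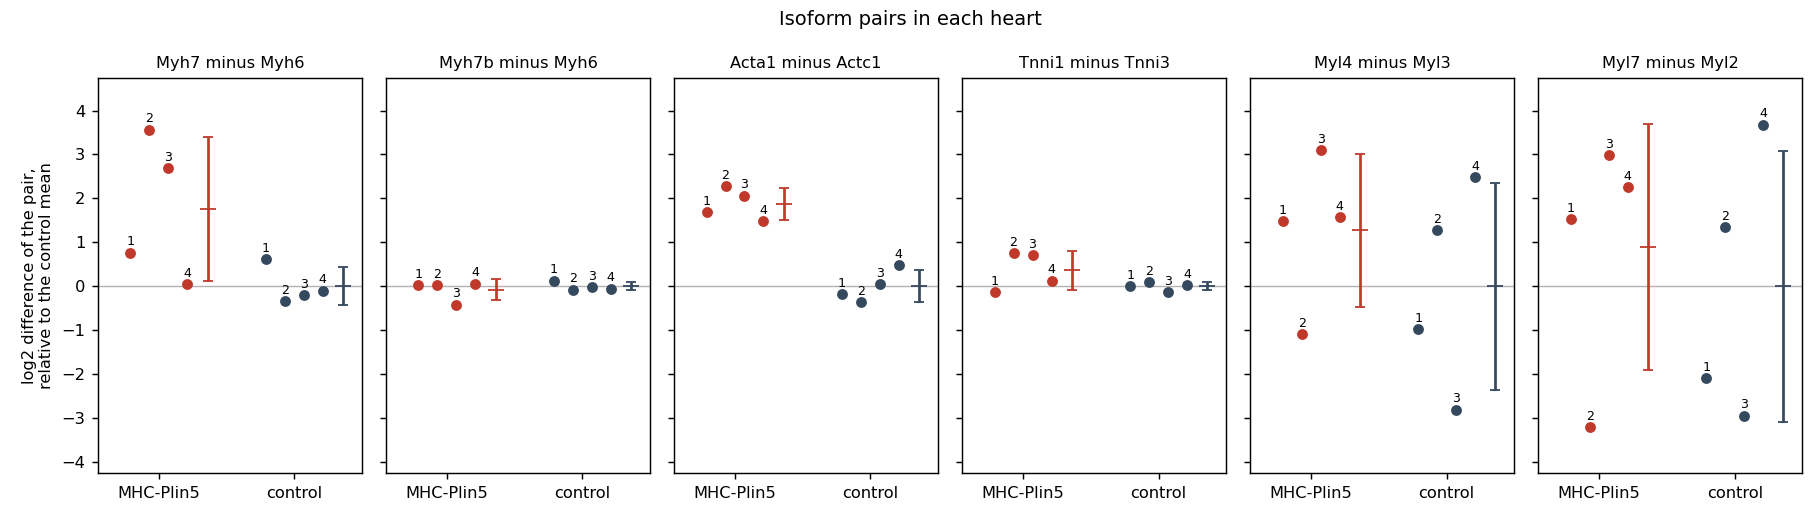
The y axis gives the log2 difference of 6 isoform pairs in each heart relative to the control mean, with the 4 MHC-Plin5 hearts left of the 4 control hearts and the mean ± SD as a bar. Acta1 minus Actc1 lies between 1.48 and 2.28 in the MHC-Plin5 hearts, while Myh7 minus Myh6 runs from 0.05 to 3.56 there.

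The MHC-Plin5 hearts kept the same order in several genes. From highest to lowest, Plin5, Acta1, Myh7 and Actc1 all had the order heart 2, 3, 1 and 4, and Myh6 had the reverse. The order was not particular to the members. Xirp2, picked after its values were seen, had it too, with 11.67, 12.70, 12.47 and 11.30 in MHC-Plin5 hearts 1 to 4. How many of all genes share the order was not counted. For Actc1 that order covers only 0.05 on the log2 scale. Myh7 covered 8.25-fold from heart 4 to heart 2, Acta1 1.80-fold and Plin5 1.53-fold. Tnni3 and Myh7b were lowest in heart 3 and next lowest in heart 2. With 4 hearts per group the order is a description, without a test, and the control hearts had other orders (Acta1 4, 3, 1 and 2, Myh7 1, 4, 3 and 2).

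**Figure D4:**
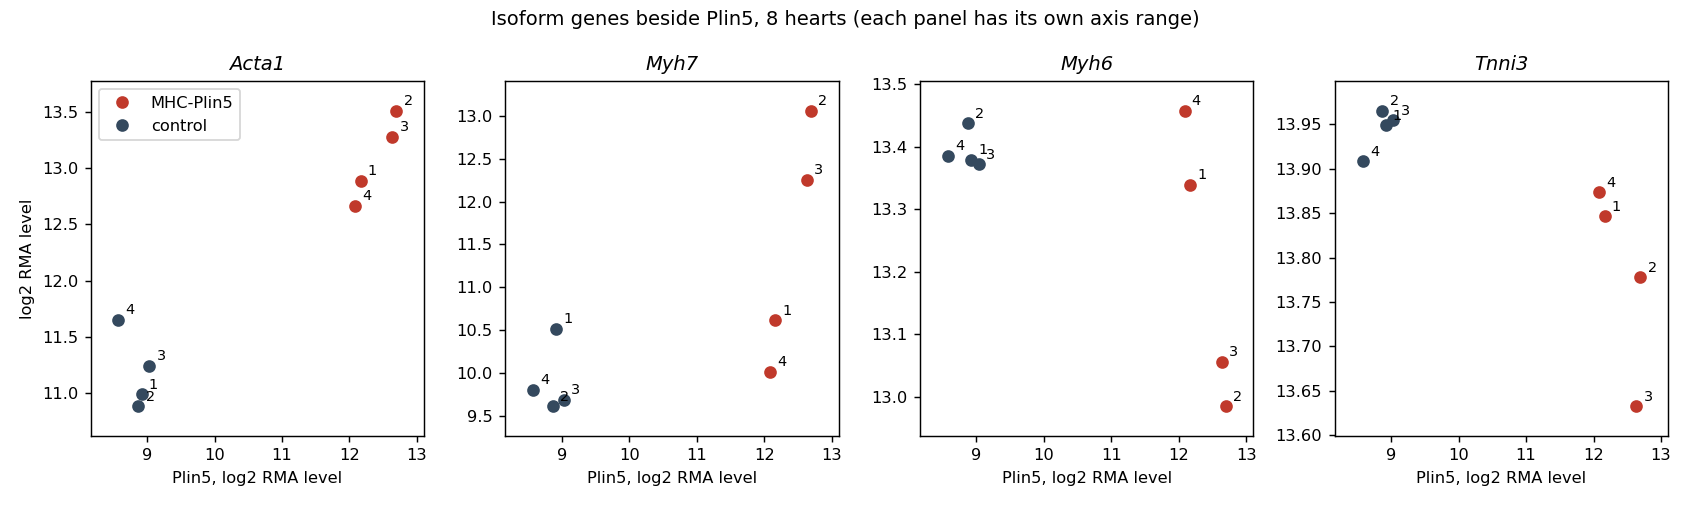
The x axis gives the log2 RMA level of Plin5 and the y axis that of Acta1, Myh7, Myh6 or Tnni3 (its own range in each panel) in 4 MHC-Plin5 and 4 control hearts, labelled by heart number. MHC-Plin5 hearts 2 and 3 have the most Plin5, Acta1 and Myh7 and the least Myh6 of the MHC-Plin5 hearts.

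The atrial light chains had the widest spread of the 10 members, in both groups. Myl7, the atrial regulatory light chain, had 10.74, 5.98, 11.90 and 11.51 in MHC-Plin5 hearts 1 to 4, against 7.13, 10.61, 6.35 and 12.92 in control hearts 1 to 4. The highest and lowest heart differed 60.5-fold among MHC-Plin5 hearts and 95.2-fold among control hearts. Myl4, the atrial essential light chain, had 12.37, 9.63, 13.43 and 12.58 in MHC-Plin5 hearts, against 9.99, 12.38, 8.27 and 13.50 in control hearts. In each group the hearts stood in the same order for both genes, MHC-Plin5 3, 4, 1 and 2 and control 4, 2, 1 and 3. The log2 differences of 0.97 for Myl4 (95% interval -1.36 to 3.30, adjusted p = 0.719) and 0.78 for Myl7 (-2.55 to 4.11, adjusted p = 0.856) were not called. Over all single hearts left out they ran from 0.045 to 1.79 for Myl4 and from -0.19 to 2.13 for Myl7. Both were lowest without control 3, the lowest control heart. The Myl7 difference was also small without control 1 (0.07) or MHC-Plin5 3 (0.16), and large without control 4 (2.00) or MHC-Plin5 2 (2.13).

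The light chains were set beside other atrial genes. The mean level of 16 atrial cardiomyocyte markers, none of them a member, was 7.67, 6.94, 8.60 and 8.19 in MHC-Plin5 hearts, against 7.20, 8.08, 7.29 and 9.09 in control hearts. The hearts with the lowest mean, MHC-Plin5 2 and control 1 and 3, were also the lowest in Myl4 and Myl7. With this mean as a covariate in limma, the SE of the difference fell to 0.44, against 1.06 without it, for Myl4, and to 0.48, against 1.52, for Myl7. The differences were then 1.11 and 1.00 and still not called (adjusted p = 0.243 and 0.348). Acta1 kept a difference of 1.90 (adjusted p = 0.00137) and Myh7 one of 1.55 (adjusted p = 0.168) in the same fit.

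The single markers did not all run like their mean. Kcnj3, a potassium channel subunit with the largest difference of the list, had 9.68, 6.27, 8.29 and 9.74 in MHC-Plin5 hearts, against 10.26, 10.25, 10.09 and 10.69 in control hearts. Its control hearts were close together where those of Myl7 were far apart, and its difference of -1.83 was not called (adjusted p = 0.148). Bmp10, a secreted growth factor of the atrium, had 4.72, 5.92, 12.39 and 10.16 in MHC-Plin5 hearts, against 5.25, 7.90, 5.15 and 10.23 in control hearts, lowest in MHC-Plin5 1 and not in MHC-Plin5 2. Both were chosen for mention after their values were seen.

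Of the 16 atrial markers, 1 was called lower and 0 higher, where 1.17% of all genes were called lower and 2.08% higher. At an unadjusted p under 0.05, 3 were lower and 1 higher, and 0 to 3 were called under the alternatives. The called gene was Kcnj5, another potassium channel subunit, chosen for mention after its values were seen. Its difference was -0.58 (SE 0.14, adjusted p = 0.0455), and it lost the call under 10 of 22 alternatives, among them leaving out any single heart other than MHC-Plin5 4. Nppa, atrial natriuretic peptide, had 13.04, 13.90, 13.97 and 12.88 in MHC-Plin5 hearts, against 11.58, 12.71, 11.54 and 13.67 in control hearts. MHC-Plin5 2, which was low in Myl7, was high in Nppa, and Nppa was not called (adjusted p = 0.238). Stard10, a lipid transfer protein, and Tbx5, a heart transcription factor, had differences of -0.47 and -0.31 and were not called.

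**Figure D5:**
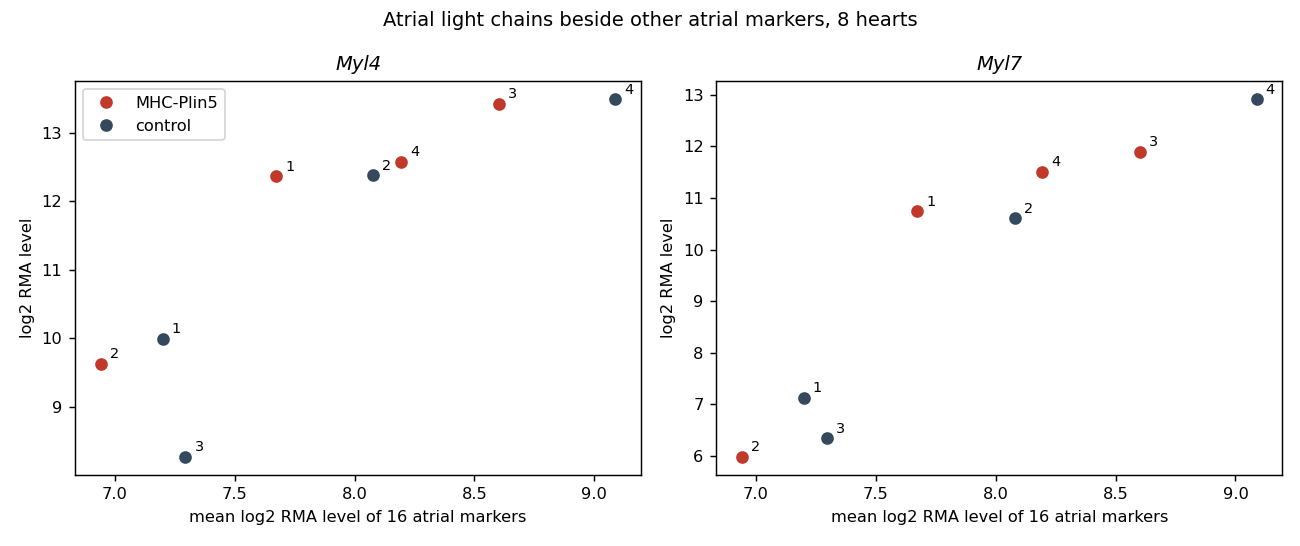
The x axis gives the mean log2 RMA level of 16 atrial markers and the y axis the log2 RMA level of Myl4 or Myl7, for 4 MHC-Plin5 and 4 control hearts labelled by heart number. Hearts of both groups are spread along 1 rising band, from MHC-Plin5 2 at 6.94 to control 4 at 9.09 on the x axis.

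The ventricular partners were steadier. Myl2, the ventricular regulatory light chain, had 13.48, 13.46, 13.18 and 13.51 in MHC-Plin5 hearts, against 13.49, 13.53, 13.55 and 13.51 in control hearts. Myl3, the ventricular essential light chain, had 13.32, 13.16, 12.77 and 13.45 in MHC-Plin5 hearts, against 13.41, 13.54, 13.51 and 13.45 in control hearts. Heart MHC-Plin5 3 was the lowest in both, and neither gene was called (log2 differences -0.11 and -0.30, adjusted p = 0.638 and 0.296). Myl4 minus Myl3 and Myl7 minus Myl2 differed by 1.27 (SE 1.46, exact p = 0.371) and 0.90 (SE 2.08, exact p = 0.8), and both groups spanned 0.

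Among 44 measured genes of titin, the Z-disc, the M-band and thin filament length, 2 rose and 0 fell, where 3.25% of all genes were called either way, and the median difference was -0.04. At an unadjusted p under 0.05, 7 were higher and 5 lower, and the count of calls ran from 0 in the test with each gene's own variances to 8 with array weights, with 3 under an intensity trend. Flnc, filamin C, which links Z-discs to the membrane, had 11.49, 12.02, 12.00 and 11.74 in MHC-Plin5 hearts, against 10.77, 10.64, 11.00 and 10.71 in control hearts. The groups were apart and the difference was 1.03 (SE 0.14, adjusted p = 0.00258). Trim54, a muscle ubiquitin ligase of the MuRF family, was higher by 0.47 (SE 0.10, adjusted p = 0.0289), with 10.02 to 10.16 in MHC-Plin5 hearts and 9.44 to 9.73 in control hearts. Its call ended without any single heart other than MHC-Plin5 4 and control 2, and with the heart number as a replicate block (adjusted p = 0.0766). Trim54 also lost it with every row tested (adjusted p = 0.0725) and in the test with each gene's own variances (adjusted p = 0.193). Flnc lost its call in 1 of the 22 alternatives, the test with each gene's own variances (adjusted p = 0.136). The widest differences of the list ran the other way and were not called, and both genes were chosen for mention after their values were seen. Myot, the Z-disc protein myotilin, had 9.51, 9.37, 7.05 and 9.20 in MHC-Plin5 hearts, against 11.00, 9.96, 10.36 and 9.89 in control hearts, a difference of -1.52 (adjusted p = 0.120) with all MHC-Plin5 hearts below all control hearts. Tmod4, a skeletal muscle tropomodulin, had a difference of -1.32 (adjusted p = 0.110), and its groups overlapped.

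Among 18 other myosin and myosin-binding genes, limma called 0, with 1 higher and 1 lower at an unadjusted p under 0.05, and 0 were called under any of the 22 alternatives. Mybpc3, cardiac myosin-binding protein C, had 12.84, 12.79, 12.76 and 13.04 in MHC-Plin5 hearts, against 12.67, 12.61, 12.62 and 12.62 in control hearts. The groups did not overlap, but the difference of 0.23 was not called (adjusted p = 0.242). Among 12 other actins, troponins and tropomyosins limma called 0, with 0 higher and 1 lower at an unadjusted p under 0.05, and 0 under any alternative. Tnnt1, slow skeletal troponin T, was that lower gene, at 6.19 ± 0.05 and 6.51 ± 0.24 (SD, n = 4 each, difference -0.33, adjusted p = 0.197), and Tnni2, fast skeletal troponin I, had a difference of -0.21 (adjusted p = 0.418).

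Of 35 measured transcription factors and hormone receptors that act on sarcomere genes limma called 0, with 3 higher and 6 lower at an unadjusted p under 0.05, and 0 to 3 under the alternatives. Myocd, a partner of serum response factor, had 10.09, 9.64, 9.88 and 10.09 in MHC-Plin5 hearts, against 10.35, 10.39, 10.35 and 10.38 in control hearts. Vgll2, a partner of TEAD factors, had 7.20, 8.41, 8.002 and 7.39 in MHC-Plin5 hearts, against 6.65, 7.20, 6.82 and 6.66 in control hearts. Neither group pair overlapped, though for Vgll2 only just, with 7.2025 in MHC-Plin5 1 against 7.1988 in control 2. The differences of -0.45 (adjusted p = 0.0596) for Myocd and 0.92 (adjusted p = 0.0667) for Vgll2 stood just outside the threshold. Of 10 myosin kinases and phosphatases limma called 0, with 1 higher and 1 lower at an unadjusted p under 0.05, and 0 or 1 under the alternatives. Mylk4, a kinase of the myosin light chain kinase family, had 10.26, 7.86, 9.80 and 9.35 in MHC-Plin5 hearts, against 10.66, 10.36, 10.53 and 10.28 in control hearts. The difference was -1.14 (adjusted p = 0.163), and that of Prkg1, a cyclic GMP-dependent kinase, 0.43 (adjusted p = 0.142).

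Markers of other cells were read because Acta1 is also the actin of skeletal muscle. The mean level of 14 skeletal fibre markers was 5.84 to 6.13 in MHC-Plin5 hearts and 5.98 to 6.30 in control hearts, near the array medians, and limma called 0 (0 higher and 2 lower at an unadjusted p under 0.05). Smooth muscle markers had a mean of 8.69 to 9.5 in MHC-Plin5 hearts and 8.62 to 9.13 in control hearts, with 0 of 8 called and 0 at an unadjusted p under 0.05. The mean of 8 fibroblast markers was 9.28 to 10.08 in MHC-Plin5 hearts and 9.24 to 9.75 in control hearts. That of 7 endothelial markers was 9.92 to 10.14 in MHC-Plin5 hearts and 10.12 to 10.16 in control hearts, and that of 7 immune markers 7.51 to 8.07 in MHC-Plin5 hearts and 7.35 to 7.87 in control hearts. In these 3 lists limma called 0 genes, with 1 fibroblast marker higher and 1 immune marker higher and 1 lower at an unadjusted p under 0.05. Ventricular markers stood at 10.17, 9.69, 9.58 and 10.33 in MHC-Plin5 hearts, against 10.20, 10.39, 10.40 and 10.31 in control hearts, and MHC-Plin5 2 and 3 were the lowest. Limma called 0 of these 8, with 4 lower at an unadjusted p under 0.05, and 3 with array weights. Of 8 conduction and pacemaker markers 1 was called lower, where 1.17% of all genes were, with 2 lower and 0 higher at an unadjusted p under 0.05. Under the alternatives 0 to 3 were called. In this list 7 markers had a difference below 0 and 1 above. Tbx3 (-0.33, limma adjusted p = 0.304) and Cacna1g (-0.61, limma adjusted p = 0.0787) were not called. The called gene was the pacemaker channel Hcn4, with a difference of -1.34 (SE 0.25, adjusted p = 0.0175). Its call ended without control 1, 2 or 3, with adjusted p values of 0.0583 to 0.0667, with every row tested (0.0636) and in the test with each gene's own variances (0.262). The part of these markers in the isoform values was not tested.

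Genes were ranked by how alike their levels ran over the 8 hearts, with members and predicted genes (named Gm, LOC or Rik) left out. Most like Acta1 were Eif4ebp1, a repressor of cap-dependent translation, with a Pearson r of 0.993, and Agap1, an Arf GTPase activator, with 0.987. Polr3g, a subunit of RNA polymerase III, and Aldh18a1, an enzyme of proline synthesis, had 0.986, and Gabarapl1, an autophagy protein, 0.985. All 5 were called higher in MHC-Plin5 hearts, so these values hold the difference between groups as well as the spread within them. Most like Myl7 in this ranking were Mybphl, a myosin-binding protein H-like gene of the atrial marker list, with 0.969, and Bscl2, the lipid droplet protein seipin, with 0.946. Slc22a19, an organic anion transporter, had 0.937. The Slc22a19 row is dim, at 3.43 to 3.95 over the 8 hearts. Ssbp4 had 0.935 and Sln, sarcolipin, which is also an atrial marker, 0.928, and none of these 5 was called. The member Myl4, left out of the ranking, had 0.968 with Myl7. The 8 points share their arrays, and the values are a description.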

How the data were processed

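The authors deposited log2 values for 8 hearts. Per the submitters' processing notes, RMA and Affymetrix Expression Console were used; no source used here names a version, settings or build. Per the labels' protocols, a Qiagen kit gave the RNA, which was biotin-labelled for whole-transcript arrays. Scanner files and scan dates were not used here, so no batch was tested. Of 35556 rows, GEO's platform annotation gave 21789 exactly 1 symbol; where a gene had more than 1 row (999 genes), its brightest on average over 8 hearts was kept, which left 19938 genes.

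All genes were fitted with lmFit and eBayes of limma 3.58.1 in R 4.3.3, genotype as the only term, two-sided, with Benjamini-Hochberg adjustment over all genes. SEs and 95% intervals of differences are limma's moderated ones. SEs of isoform pairs come from the SDs of both groups. Exact permutation tests used scipy 1.17.1, adjusted over the 6 pairs. In data simulated for this comparison with 19938 genes, changes of 0.5, 1 and 2 (log2) were called in 35.8%, 86.6% and 100% of cases. Randomly chosen genes were changed (67, 67 and 66), with normal noise of the same SD in both groups for each gene. These shares do not carry over to Myh7, whose SDs were 1.41 and 0.42, or to the widely spread Myl4 and Myl7.

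The members and lists were chosen with earlier results of these data known. Named genes were the members, Myl2, Myl3, Plin5, the myosin miRNAs, up to 4 called genes of each other family list (or the 2 with the smallest p), and up to 3 markers per cell type. Also named were the 5 genes most correlated with Acta1 and with Myl7, members and predicted genes left out. The cell type lists are shortened to ranges in the text. Listed genes without a row of their own were not analysed here. RefSeq windows were found for all 10 members. Alternatives were filters, normalizations, variance models, array weights, rows, covariates, a replicate block, left-out hearts and a test with each gene's own variances (Welch's).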

Additional observations from a re-analysis of the deposited data

Results flagged for a closer look

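In 36 groups of 4 hearts tested for a single heart far from the others (12 genes and 6 pairs), 3 were found, where chance gives about 1 in 20. Myh7b in control 1, at 7.22, lay apart from the other control hearts. Myl2 in MHC-Plin5 3, at 13.18, lay apart from the other MHC-Plin5 hearts, as did Myh7b minus Myh6 in the same heart, at -0.41 relative to the control mean.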

How the results depend on the processing

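Acta1 stayed called under 21 of 22 alternatives. The number of genes called over the whole table was 415 higher and 233 lower. It was 436 and 355 after quantile normalization, 884 and 741 with array weights, 220 and 81 with every row tested, and 23 and 5 by Welch's test. With single hearts left out it ran from 170 to 614 higher and from 56 to 560 lower: 177 and 56 without MHC-Plin5 2, 236 and 108 without MHC-Plin5 3, 614 and 560 without MHC-Plin5 4, 177 and 69 without control 1, 238 and 79 without control 2, 170 and 65 without control 3, and 202 and 132 without control 4. Members called higher were 2 with array weights, 0 by Welch's test and 1 to 2 with a heart left out, and 0 were called lower under any alternative. The sign turned for Myl7 (-0.19) and Myl7 minus Myl2 (-0.084) without control 3 and for Myh7b minus Myh6 (0.042) without MHC-Plin5 3. The cause of these changes was not tested. With a heart left out, Myh7 minus Myh6 ranged from 1.17 to 2.34, Acta1 minus Actc1 from 1.74 to 2.04 and Tnni1 minus Tnni3 from 0.24 to 0.53. Myl4 minus Myl3 ranged from 0.34 to 2.10, Myl7 minus Myl2 from -0.084 to 2.26 and Myh7b minus Myh6 from -0.117 to 0.042. For single genes the ranges were -0.19 to 2.13 for Myl7, 0.045 to 1.79 for Myl4, -0.38 to -0.09 for Myh7b and 0.08 to 0.35 for Tnni1. Same-numbered hearts deviated together with correlations of 0.19, 0.03, -0.11 and -0.04, and 2 of 8 hearts correlated best with their own number, so the numbers were not taken to pair hearts. With the heart number as a replicate block, 330 genes were called higher and 177 lower, and Acta1 kept its call (1.90, adjusted p = 0.00489). Depth does not apply to arrays, and dim rows such as Mir208a are the least certain.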
